A study of Mus musculus with 6 samples.

Results

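The genes described here are 10 mouse genes that import arginine, split it, turn it into nitric oxide, rebuild it from citrulline, or make and break down polyamines. They were taken by symbol from the deposited counts, in which all 10 have a row among 23955 genes, and 8 of them passed the filter on low counts that left 10626 genes for testing. RNA sequencing was done on monocytes from 2 groups of 3 libraries, named Kid double_pos (kidney replicates 7, 8 and 22) and SPL_BM double (spleen and bone marrow replicates 2, 24 and 26). All mice carried nephrotoxic nephritis, an antibody-driven glomerular injury, were wild type of a strain labelled C5/Bl6, were 8 to 10 weeks old and were killed on day 13, so both groups share the disease and no healthy control enters the comparison. The labels give 10 mice for the series and do not say whether a library is 1 animal or a pool, so p-values speak to the spread between these libraries alone, which may be technical. They describe enrichment with a monocyte isolation kit and a sort for kidney cells alone, and the markers behind the word double are not named. Tissue and handling therefore cannot be told apart.

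Arginine sits at a branch point in myeloid cells. Arginase splits it into urea and ornithine, and ornithine feeds the polyamines putrescine, spermidine and spermine. Nitric oxide synthase turns it into nitric oxide and citrulline, which argininosuccinate synthase and lyase recycle to arginine. In mouse macrophages, arginase 1 is a familiar gene of cells exposed to IL-4, IL-13 or IL-10, and inducible nitric oxide synthase of cells exposed to interferon gamma and bacterial products.

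Library totals lay between 3492391 counts (kidney replicate 22) and 9727489 counts (spleen and marrow replicate 26). In a single library, 3 counts corresponded to 0.322 to 0.881 CPM, that is, counts scaled to a common library size. Monocyte transcripts were present throughout: the growth factor receptor gene Csf1r measured 457, 277 and 371 CPM in kidney replicates 7, 8 and 22, against 109, 119 and 120 CPM in spleen and marrow replicates 2, 24 and 26. Markers of other cell types differed among the kidney libraries. Of 14 proximal tubule markers, all had counts in kidney, with sums of 224, 106 and 564 CPM in replicates 7, 8 and 22, and 8 of the 14 had none in spleen and marrow, where sums were 1.72 to 2.87 CPM. The 8 markers of distal tubule and collecting duct summed to 392, 132 and 892 CPM in these kidney libraries, against 0.322 to 1.38 CPM in spleen and marrow. Sums of 10 endothelial markers were 30.3, 899.9 and 22.02 CPM in the same kidney libraries, against 8.07 to 13.1 CPM in spleen and marrow. Sums of 12 granulocyte markers were 581, 1592 and 16601 CPM in kidney, against 10094 to 12411 CPM. In kidney replicate 22, Ngp (8146 CPM) and Camp (5261 CPM) made up most of that sum. Elane was lower there, at 245 CPM, against 1078 to 1727 CPM in spleen and marrow. For 6 of the 12 markers every kidney library lay below every spleen and marrow library, against 18.8% of all genes tested. Replicates 24 and 26 of spleen and marrow were close but not identical, with a chi-square per degree of freedom of 2.95, against 23.5 and 25.8 when replicate 2 was set beside each. In bulk libraries, fewer cells of a type and less RNA per cell cannot be told apart.

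Both arginase genes were higher in kidney, and none of the 6 other genes tested passed. With edgeR's quasi-likelihood test, 2 of the 8 tested genes rose and 0 fell at a Benjamini-Hochberg adjusted p under 0.05. Over all genes tested, 7.83% rose and 5.9% fell, or 832 and 627 genes, where limma-voom gave 737 and 838 (0 of the 8 fell in the DESeq2 or limma-voom fits either). Asl was the only other of the 8 with an unadjusted p under 0.05. Every kidney library lay above every spleen and marrow library for Arg1, Arg2 and Asl among the 8, against 19.2% of all genes tested, and below for 0 of the 8, against 18.8%. In either direction that is 3 of the 8 without overlap, against 37.9% of all genes tested. The median log2 fold change was 0.05 over the 8 genes and 0.05 over all genes tested. Arg1 passed the filter through its kidney counts alone, so the 8 are not a neutral choice from the 10.

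**Figure D1:**
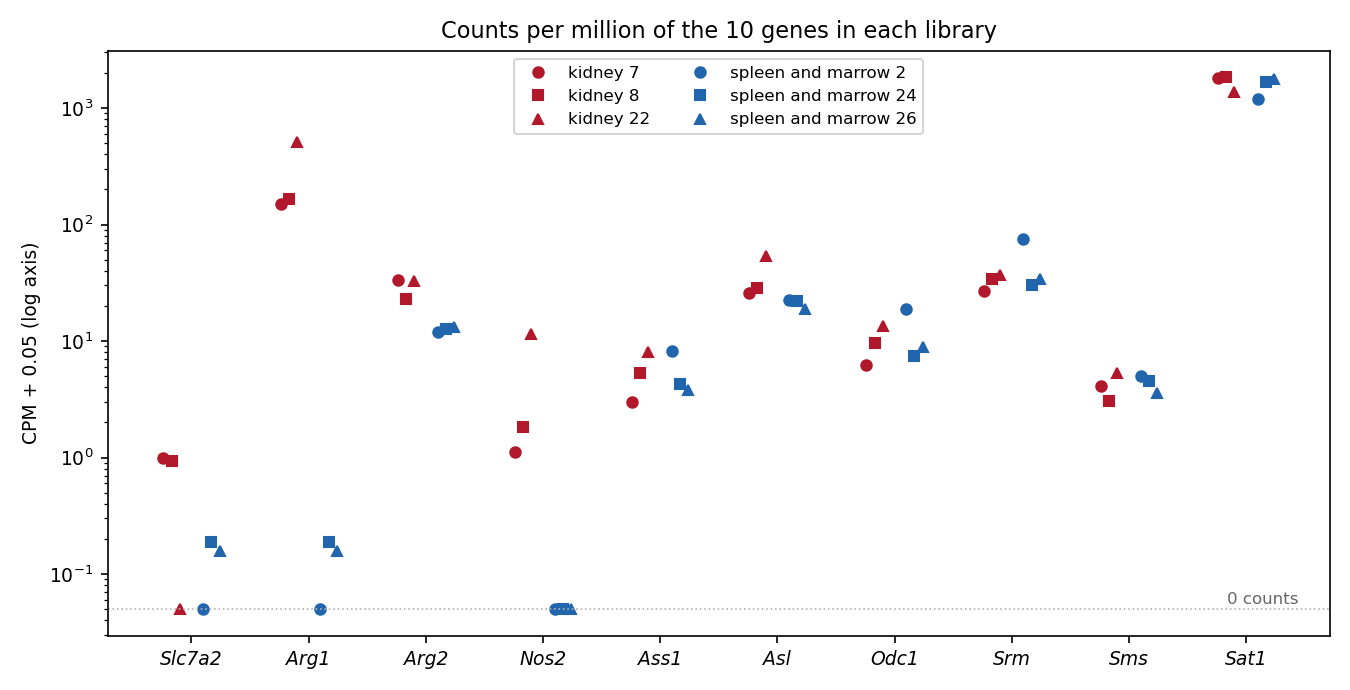
CPM plus 0.05 on a log axis for the 10 genes, 1 point per library, with kidney libraries in red left of spleen and marrow libraries in blue, and the dotted line marking 0 counts. Arg1 and Nos2 stand at 0 to 0.137 CPM in spleen and marrow and at 1.07 to 516 CPM in kidney, while the points of Ass1, Odc1, Srm, Sms and Sat1 overlap between the groups.

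Arg1, which encodes the cytosolic arginase, was nearly absent from spleen and marrow. It had 1263, 1298 and 1756 counts in kidney replicates 7, 8 and 22, against 0, 1 and 1 count in spleen and marrow replicates 2, 24 and 26. On the CPM scale these were 150, 164 and 516 in kidney, against 0, 0.137 and 0.107. The groups did not overlap, and replicate 22 stood more than 3 times above the other kidney libraries. Pooled per group, the ratio was 2769 with a 95% exact interval of 766 to 22874, which covers counting error only. With 1 library left out it lay between 1818 (503 to 15016), without spleen and marrow replicate 2, and 3941 (707 to 155705), without spleen and marrow replicate 24. Without kidney replicate 22 it was 1985 (549 to 16399). The log2 fold change was 11.49 ± 0.88 (SE, edgeR adjusted p = 0.000564), and its size depends on the prior count used for libraries near 0. The call was kept in all 17 alternative fits, with adjusted p of at most 0.0221.

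Per transcript length, Arg1 was the main arginase message in kidney. On the authors' FPKM scale its level was 54.1, 59.5 and 129 in kidney replicates 7, 8 and 22, against a listed 0, 0 and 0.0292 in spleen and marrow replicates 2, 24 and 26. Its mean of 80.7 FPKM in kidney ranked 848th among 23951 rows. Arg1 made up 83.1%, 88.1% and 93.4% of the summed arginase FPKM in kidney, against 0%, 0% and 0.733% in spleen and marrow. In counts, the share was 81.7% (95% exact interval 79.7 to 83.6), 87.7% (85.9 to 89.3) and 94.0% (92.8 to 95.04) in kidney, against 0% (up to 3.52), 1.06% (up to 5.79) and 0.813% (up to 4.45).

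Arg2, the mitochondrial arginase, rose by a smaller amount and from a measurable base. It measured 33.5, 23.0 and 32.9 CPM in kidney replicates 7, 8 and 22, against 11.8, 12.7 and 13.1 CPM in spleen and marrow replicates 2, 24 and 26. The groups did not overlap, and replicate 22 was not the highest kidney library. Kidney averaged 29.8 ± 5.91 CPM, against 12.5 ± 0.643 CPM for spleen and marrow (SD, n = 3 each). The log2 difference was 1.25 ± 0.25 (SE), with an edgeR adjusted p of 0.0159. Its log2 fold change was 1.15 without kidney replicate 22. The call was lost without spleen and marrow replicate 2, 24 or 26 (edgeR adjusted p = 0.0902, 0.0906 and 0.0962), although the log2 fold change stayed between 1.19 and 1.26. Of 50-base words in Arg2 transcripts, 21.2% also occur in transcripts of other genes, so part of its count could be shared with them. Among kidney libraries, replicate 8 was lowest for Arg2 and for proximal tubule markers, which added up to 106 CPM there. Those markers were highest in replicate 22 (564 CPM), while Arg2 was highest in replicate 7, where they stood at 224 CPM. Whether tubule RNA added to the Arg2 level was not tested.

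Arg1 measured 150, 164 and 516 CPM in kidney replicates 7, 8 and 22. In these libraries the proximal tubule sum was 224, 106 and 564 CPM, and the granulocyte sum was 581, 1592 and 16601 CPM. Macrophage markers summed to 6448, 7231 and 6183 CPM in kidney replicates 7, 8 and 22, against 1013 to 1169 CPM in spleen and marrow. The 5 tested genes closest to Arg1 in centred log2(CPM + 1) over the 6 libraries included Fxyd2, C1qa, C1qc and Spink3, at root-mean-square distances of 0.53, 0.61, 0.69 and 0.71. Fxyd2, a sodium pump subunit, is abundant in kidney tubule, and C1qa and C1qc encode complement C1q chains made by macrophages. With 2 groups so far apart, this likeness mostly restates the group difference. Which cells in the libraries held the Arg1 message was not tested.

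**Figure D2:**
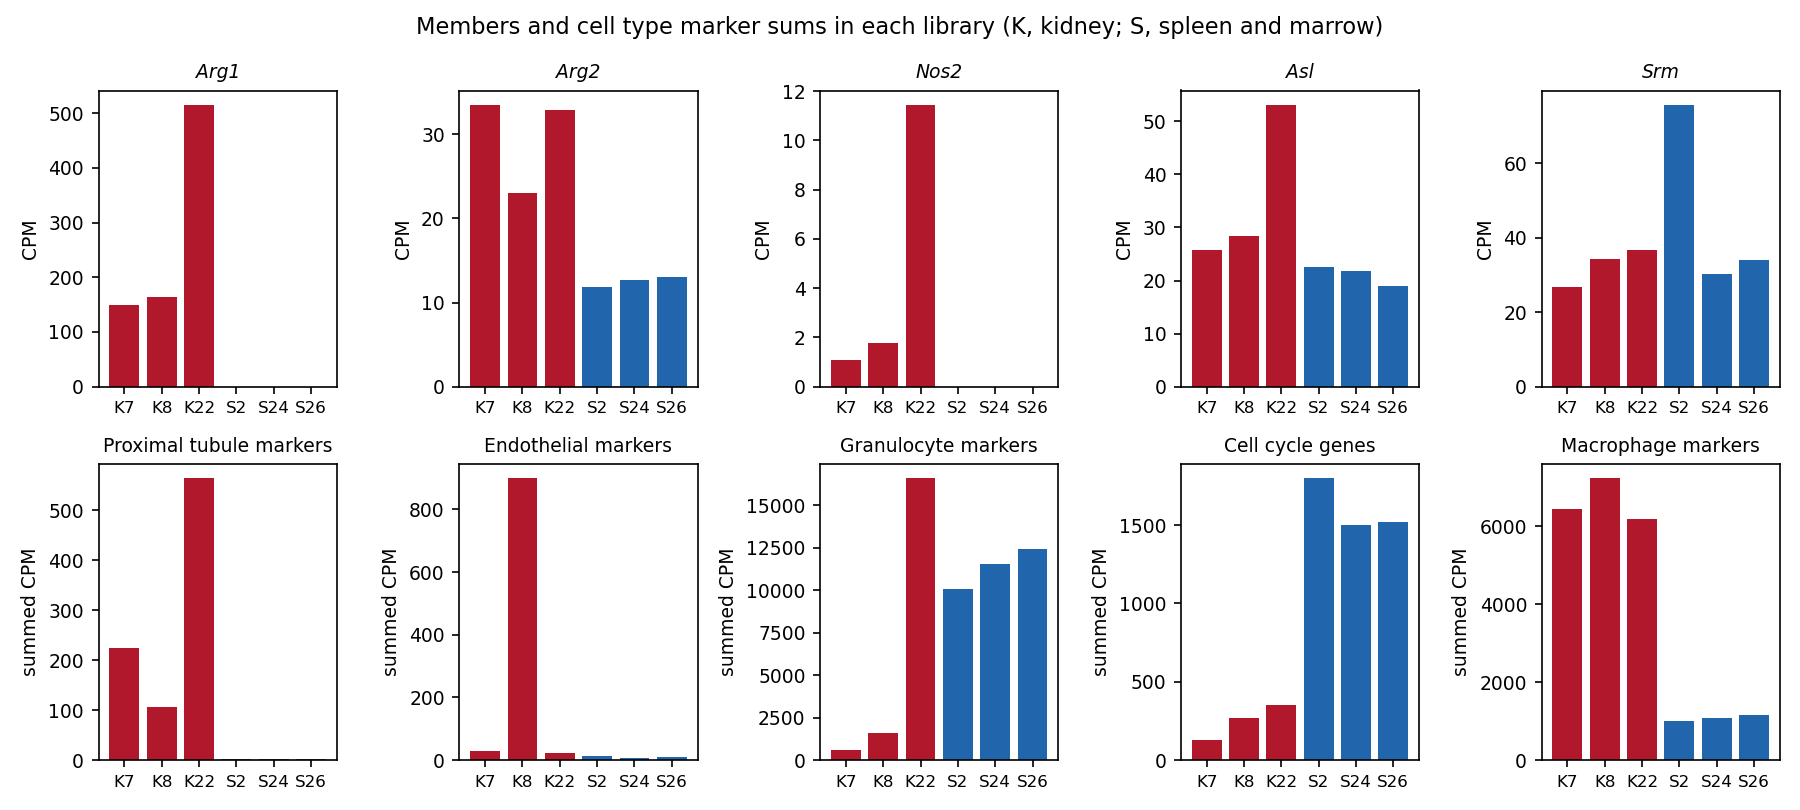
Bars give CPM of 5 member genes (upper row) and summed CPM of 5 marker lists (lower row) in each library, each panel from 0, with kidney replicates 7, 8 and 22 (K, red) left of spleen and marrow replicates 2, 24 and 26 (S, blue). Arg1, Nos2, Asl, the proximal tubule sum and the granulocyte sum are all highest in kidney replicate 22, while the endothelial sum is highest in kidney replicate 8 at 899.9 CPM.

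Nos2, the inducible nitric oxide synthase, was detected in kidney libraries but stayed scarce. It had 9, 14 and 39 counts in kidney replicates 7, 8 and 22, against 0 counts in all 3 spleen and marrow libraries. That is 1.07, 1.77 and 11.5 CPM in kidney, where replicate 22 held 39 of the 62 counts. Against a floor of 3 counts over the spleen and marrow group, Nos2 was at least 26.5-fold higher in kidney, and at least 11.9-fold higher without kidney replicate 22. Leaving out spleen and marrow replicate 2, 24 or 26 gave bounds of 17.4, 18.9 and 16.8. Nos2 missed the filter on low counts and so has no p in the fit that gives the other values. It passed with no such filter (edgeR adjusted p = 0.0206), with a filter of 1 CPM in 3 libraries (edgeR adjusted p = 0.0388) and in DESeq2 (adjusted p = 0.000174), and missed on log2(FPKM + 1) (limma adjusted p = 0.276). Where it was tested with 1 spleen and marrow library left out, it missed too (edgeR adjusted p = 0.107 to 0.121). All its counts lay in kidney, so Nos2 entered each of these fits through its kidney counts alone. The sum of 12 granulocyte markers, 16601 CPM, was also highest in kidney replicate 22, against 10094 to 12411 CPM in spleen and marrow. Ngp (8146 CPM) and Camp (5261 CPM) made up most of it. Elane, Mpo and Prtn3 were lower there than in any spleen and marrow library. The part of granulocytes in the Nos2 level was not tested.

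The 2 branches of arginine use were far apart in level. Within a library, Arg1 stood above Nos2 on the FPKM scale by a factor of 599, 221 and 160 in kidney replicates 7, 8 and 22. The order of these factors is the reverse of the order of Nos2, which was 0.0902, 0.269 and 0.802 FPKM. Nos2 is their denominator, so that order is largely built in. The factors rest on 9, 14 and 39 Nos2 counts, so their size is uncertain. Between kidney replicates 7 and 8, Nos2 differed less in CPM (1.07 and 1.77) than in FPKM. Nos2 has no 50-base word in common with another gene's transcripts, and neither has Arg1.

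Slc7a2, the arginine and lysine importer known to serve macrophages, was close to the limit of detection everywhere. It had 8, 7 and 0 counts in kidney replicates 7, 8 and 22, against 0, 1 and 1 count in spleen and marrow replicates 2, 24 and 26. The groups overlapped, because kidney replicate 22 had none, and 3 counts there correspond to 0.881 CPM. The pooled ratio was 9.62 (95% exact interval 2.24 to 86.7, counting error only), from 6.32 to 13.7 on leaving out any 1 library. It was not tested, and with no filter edgeR gave an adjusted p of 0.365.

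Citrulline recycling showed no call. Asl, the lyase that releases arginine from argininosuccinate, measured 25.8, 28.3 and 53.2 CPM in kidney replicates 7, 8 and 22, against 22.5, 21.9 and 19.0 CPM in spleen and marrow replicates 2, 24 and 26. The groups did not overlap, but kidney replicate 22 stood far above the other kidney libraries, and the log2 fold change of 0.75 ± 0.31 (SE) missed the threshold (edgeR adjusted p = 0.162). The 95% interval ran from 0.03 to 1.47, and without replicate 22 the value was 0.34. That library also held the highest proximal tubule and granulocyte sums, whose part in the Asl level was not tested. Ass1, the synthase that joins citrulline and aspartate, stood at 2.96, 5.31 and 7.93 CPM in kidney, against 8.15, 4.24 and 3.75 CPM. Its groups overlapped fully, with a log2 difference of -0.02 ± 0.53 (SE, edgeR adjusted p = 0.987) and a 95% interval from -1.26 to 1.21. Ass1 is also a gene of proximal tubule, whose marker sum was 564 CPM in kidney replicate 22 and 106 CPM in replicate 8, and the part of tubule RNA in its level was not tested. Of its 50-base words, 55.3% also occur in transcripts of 1 other gene, Gm5424, so its level is uncertain.

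None of the 3 polyamine synthesis genes passed the test. Odc1, the ornithine decarboxylase that opens the pathway, measured 6.16, 9.48 and 13.5 CPM in kidney replicates 7, 8 and 22, against 18.7, 7.39 and 8.90 CPM in spleen and marrow replicates 2, 24 and 26. The highest value was in spleen and marrow replicate 2, and the log2 difference of -0.28 ± 0.47 (SE, edgeR adjusted p = 0.745) became 0.22 without it. The 95% interval ran from -1.37 to 0.80. Odc1 shares 42.2% of its 50-base words with transcripts of 16 other genes, so its level is uncertain.

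Srm, spermidine synthase, measured 26.8, 34.2 and 36.7 CPM in kidney replicates 7, 8 and 22, against 75.7, 30.2 and 34.0 CPM in spleen and marrow replicates 2, 24 and 26. Here too spleen and marrow replicate 2 stood alone, at more than 2 times any other library. The log2 fold change was -0.52 ± 0.36 (SE, edgeR adjusted p = 0.399), with a 95% interval from -1.36 to 0.32, and it was 0.00 without replicate 2. Cell cycle genes, which are often active where polyamines are made, summed to 128, 272 and 354 CPM in kidney, against 1800 (replicate 2), 1498 and 1517 CPM in spleen and marrow. The log2 fold changes of Odc1 (-0.28) and Srm (-0.52) were also negative, neither with a call. A link between these genes and the cell cycle sums was not tested.

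Sms, spermine synthase, measured 4.03, 3.03 and 5.29 CPM in kidney replicates 7, 8 and 22, against 4.94, 4.51 and 3.54 CPM in spleen and marrow replicates 2, 24 and 26. The groups overlapped, with a log2 difference of -0.09 ± 0.45 (SE, edgeR adjusted p = 0.921) and a 95% interval from -1.14 to 0.96. Counts and FPKM did not rank its libraries alike: kidney replicate 22 was the highest of the 6 in CPM and the lowest in FPKM (1.48, against 3.16 to 5.10 in the other 5). Sms shares 28.1% of its 50-base words with transcripts of 6 other genes.

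Sat1, which acetylates spermidine and spermine for breakdown or export, was the most abundant of the 10 genes in both groups. It held 15392, 14523 and 4681 counts, or 1824, 1835 and 1375 CPM, in kidney replicates 7, 8 and 22, against 1206, 1672 and 1781 CPM in spleen and marrow replicates 2, 24 and 26. The groups overlapped, with a mean of 1678 ± 263 CPM for kidney, against 1553 ± 305 CPM for spleen and marrow (SD, n = 3 each). The log2 fold change was 0.11 ± 0.19 (SE, edgeR adjusted p = 0.745), and its 95% interval ran from -0.32 to 0.54. On the FPKM scale it averaged 878 ± 292 in kidney and 843 ± 168 in spleen and marrow (SD, n = 3 each), ranks 123 and 169 of 23951 rows. Within a library, Sat1 exceeded Odc1 in FPKM by a factor of 471, 311 and 120 in kidney, against 110, 358 and 370 in spleen and marrow, and the ranges overlapped.

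In order of mean FPKM in kidney, the genes ran Sat1, Arg1 (80.7 ± 41.6), Asl (13.1 ± 3.18), Srm (12.5 ± 1.97), Arg2 (9.37 ± 1.49), Odc1 (3.36 ± 1.14), Ass1 (3.16 ± 1.44), Sms (2.61 ± 0.972), Nos2 (0.387 ± 0.371) and Slc7a2 (0.0276 ± 0.0240) (SD, n = 3 each). In spleen and marrow the order was Sat1, Srm (18.6 ± 8.81), Asl (8.44 ± 0.416), Sms (4.25 ± 0.892), Odc1 (3.69 ± 1.93), Ass1 (3.49 ± 1.31), Arg2 (3.47 ± 0.549) (SD, n = 3 each), followed by Arg1 at a listed 0, 0 and 0.0292, Slc7a2 at a mean of 0.00376 and Nos2 at a listed 0. Asl and Srm, and likewise Odc1, Ass1 and Sms, each lay within 1 SD of the next in that order in kidney, as did Sms, Odc1, Ass1 and Arg2 in spleen and marrow. Arg1 ranked behind Sat1 alone in kidney and behind 7 of the 10 genes in spleen and marrow.

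**Figure D3:**
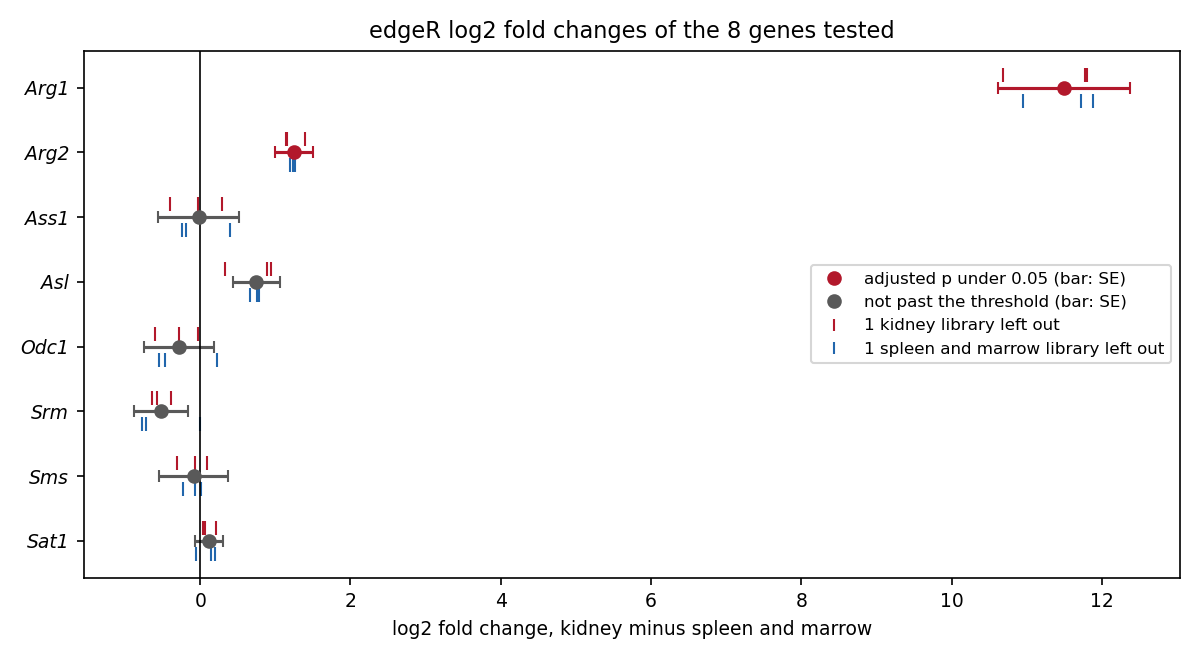
Points give edgeR log2 fold changes, kidney minus spleen and marrow, of the 8 genes tested with their SE, and ticks give the value when 1 kidney (red) or 1 spleen and marrow (blue) library is left out. Arg1 at 11.49 and Arg2 at 1.25 pass the threshold, and the ticks of Ass1, Odc1, Sms and Sat1 fall on both sides of 0.

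The RefSeq promoter table of build GRCm38.p6 holds 5 start sites for 4 of the 10 genes, Ass1, Odc1, Sat1 and Sms. The 250 bases before each start were searched for CACGTG, the E-box bound by the growth regulator MYC, because Myc rose in kidney while these genes did not pass. The word reads the same on both strands and overlaps no other motif searched. It occurs before 2 of the 5 starts and in 6.02% of the 32851 promoter windows of the table. The 2 windows are shown 5′ to 3′ on the gene's strand, with the E-box in capitals, and the last base is the one before the start.
Ass1 (chr2:31470020-31470269, plus strand): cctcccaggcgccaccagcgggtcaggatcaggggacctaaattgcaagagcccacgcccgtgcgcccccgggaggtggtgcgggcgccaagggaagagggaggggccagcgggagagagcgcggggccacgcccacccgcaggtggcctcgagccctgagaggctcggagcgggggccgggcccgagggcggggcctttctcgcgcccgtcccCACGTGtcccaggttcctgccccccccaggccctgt
Sms (chrX:157492288-157492537, minus strand): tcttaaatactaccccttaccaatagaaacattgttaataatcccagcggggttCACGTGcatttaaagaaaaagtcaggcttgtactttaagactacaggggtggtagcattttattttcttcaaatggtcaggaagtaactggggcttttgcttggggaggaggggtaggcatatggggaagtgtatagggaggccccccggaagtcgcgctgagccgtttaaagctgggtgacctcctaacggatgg
In Ass1 the E-box begins 36 bases before the start, and in Sms 196 bases before the start of the window shown. The other listed start of Sms, with window chrX:157491369-157491618, has no CACGTG in its 250 bases. A match is a description of the sequence, and binding was not measured. Bases after the start and farther upstream were not searched. A window without the word, such as that of Odc1, therefore does not mean that the gene lacks it.

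The wider pathway was described from lists of 68 other genes, 53 of which were tested. Of these, 10 rose and 0 fell in edgeR, which is 18.9% called against 13.7% of all genes tested in either direction (DESeq2 gave 2 lower and limma-voom 1 lower). Their median log2 fold change was 0.35, against 0.05 over all genes tested. The 10 include Ddah1, which passed the filter on low counts through its kidney counts alone, so the 53 are not a neutral choice. Without spleen and marrow replicate 2, 24 or 26 the number that rose was 4, 2 and 2, and without kidney replicate 22 it was 17, with 2 lower.

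In arginine transport, 1 of 5 tested genes rose, against 7.83% of all genes tested. Slc3a2, the heavy chain that carries several amino acid transporters to the membrane, measured 180, 191 and 168 CPM in kidney replicates 7, 8 and 22, against 111, 136 and 117 CPM in spleen and marrow replicates 2, 24 and 26. Its log2 fold change was 0.57 ± 0.14 (SE, edgeR adjusted p = 0.0370), and the call held without kidney replicate 22 but not without each of the other 5 libraries in turn (adjusted p 0.0601 to 0.196). The ubiquitous arginine importer gene Slc7a1 averaged 15.3 ± 10.5 CPM in the kidney group, against 10.9 ± 1.63 CPM in the other (SD, n = 3 each), without a call.

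In the nitric oxide list, 2 of 10 tested genes rose, against 7.83% of all genes tested. Ddah1, which degrades methylarginines that inhibit nitric oxide synthases, had 4.98, 9.22 and 21.1 CPM in kidney replicates 7, 8 and 22, against 0 counts in spleen and marrow, so it was at least 80.0-fold higher against 3 counts over that group (edgeR adjusted p = 0.00719). That call was kept in all 17 alternatives, although Ddah1 passed the filter on low counts through its kidney counts alone. The proximal tubule sum was 224, 106 and 564 CPM in the same kidney libraries, and its part in the Ddah1 level was not tested. Gchfr, which restrains the enzyme that makes the cofactor tetrahydrobiopterin, stood at 6.16, 13.6 and 5.29 CPM in kidney, against 1.72, 1.09 and 2.04 CPM (log2 fold change 2.36 ± 0.55, edgeR adjusted p = 0.0288). Its adjusted p was 0.0774 without kidney replicate 8 and 0.121 to 0.141 without any 1 spleen and marrow library. Ddah2, without a call, and the endothelial synthase gene Nos3, without a call, reached 29.3 CPM and 8.21 CPM in kidney replicate 8, the library with the largest endothelial sum. The part of endothelial cells in these values was not tested.

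Among ornithine, proline and creatine genes, 1 of 8 tested rose, a share near the 7.83% of all genes tested. Gatm, which uses arginine to start creatine synthesis and is abundant in proximal tubule, measured 67.9, 83.8 and 80.2 CPM in kidney replicates 7, 8 and 22, against 51.1, 28.0 and 28.2 CPM in spleen and marrow replicates 2, 24 and 26. The proximal tubule sum was 224, 106 and 564 CPM in the same kidney libraries, and its part in the Gatm level was not tested. The log2 fold change was 1.11 ± 0.27 (SE, edgeR adjusted p = 0.0324), with adjusted p of 0.0525, 0.0782, 0.143 and 0.157 without kidney replicate 7 or 8 or spleen and marrow replicate 24 or 26. Oat, which sends ornithine toward proline and glutamate, averaged 57.8 ± 8.97 CPM in the kidney group, against 48.7 ± 1.44 CPM in spleen and marrow (SD, n = 3 each), without a call.

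Among genes of polyamine control, 2 of 15 tested rose, a share near the background of 7.83%. Smox, which oxidises spermine back to spermidine, measured 47.8, 39.2 and 45.8 CPM in kidney replicates 7, 8 and 22, against 20.2, 24.8 and 28.9 CPM in spleen and marrow replicates 2, 24 and 26 (log2 fold change 0.84 ± 0.21, edgeR adjusted p = 0.0381). Atp13a2, a lysosomal polyamine exporter, stood at 110, 57.9 and 118 CPM in kidney, against 36.9, 39.9 and 35.8 CPM (log2 fold change 1.34 ± 0.27, edgeR adjusted p = 0.0167). Neither gene's groups overlapped, as for 37.9% of all genes tested. Dropping any 1 spleen and marrow library ended both calls (adjusted p 0.0804 to 0.152), and that of Smox without kidney replicate 7 (0.0768). Eif5a, the protein that carries the spermidine-derived residue hypusine, had 513, 632 and 851 CPM in kidney, against 1206, 889 and 953 CPM, a log2 difference of -0.61 ± 0.21 that missed the threshold in edgeR (adjusted p = 0.0970) and passed in DESeq2 (adjusted p = 0.0422). Amd1 and Amd2, near-identical genes for the enzyme that supplies the aminopropyl group, were listed at 0 counts in all 6 libraries, and 86.0% and 85.7% of their 50-base words occur in other genes, so these zeros are no measure of expression. Oaz1, the antizyme that restrains ornithine decarboxylase, is under the same doubt, with 45.5% shared. The authors' FPKM does list values for these genes, under the same doubt about shared words. Amd1 stood at 4.56, 4.63 and 3.34 FPKM in kidney replicates 7, 8 and 22, against 6.69, 7.19 and 7.07 in spleen and marrow. Oaz1 stood at 349, 365 and 304 FPKM, against 424, 405 and 448. Amd2 reached 1.19 FPKM in kidney replicate 22 and at most 0.00968 elsewhere.

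Of 15 receptors and transcription factors known for Arg1, Nos2 or Odc1 in mouse macrophages, 4 rose, against 7.83% of all genes tested. Il10ra, the ligand-binding IL-10 receptor chain, averaged 97.3 ± 23.7 CPM in kidney, against 28.3 ± 3.10 CPM in spleen and marrow (SD, n = 3 each). Its log2 difference of 1.78 ± 0.22 (SE, edgeR adjusted p = 0.00259) stayed past the threshold in all 17 alternatives. Il4ra, the shared chain of the IL-4 and IL-13 receptors, measured 81.3, 43.9 and 96.0 CPM in kidney replicates 7, 8 and 22, against 41.3, 29.5 and 26.5 CPM (log2 fold change 1.18 ± 0.32, edgeR adjusted p = 0.0469). Ifngr1, the interferon gamma receptor chain, averaged 522 ± 68.2 CPM in kidney, against 319 ± 66.9 CPM in spleen and marrow (log2 fold change 0.71 ± 0.19, edgeR adjusted p = 0.0423). Myc, a known activator of Odc1, averaged 22.1 ± 1.63 CPM in kidney, against 7.30 ± 1.37 CPM in spleen and marrow (log2 fold change 1.59 ± 0.28, edgeR adjusted p = 0.00983). With libraries left out in turn, the Il4ra call was kept without kidney replicate 8 (adjusted p 0.0166) and lost without each of the other 5 (0.0576 to 0.197). Ifngr1 fell short without kidney replicate 7 (0.0905) and in each fit lacking 1 spleen and marrow library (0.0837 to 0.142), and Myc without spleen and marrow replicate 24 (0.0692) or 26 (0.0738). Stat6, which relays IL-4 signals to Arg1, averaged 50.9 ± 8.71 CPM in kidney, against 42.6 ± 5.72 CPM in spleen and marrow (SD, n = 3 each), without a call. Cebpb, another known activator of Arg1, averaged 1787 ± 119 CPM in kidney, against 2151 ± 162 CPM in spleen and marrow (SD, n = 3 each), also without a call.

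**Figure D4:**
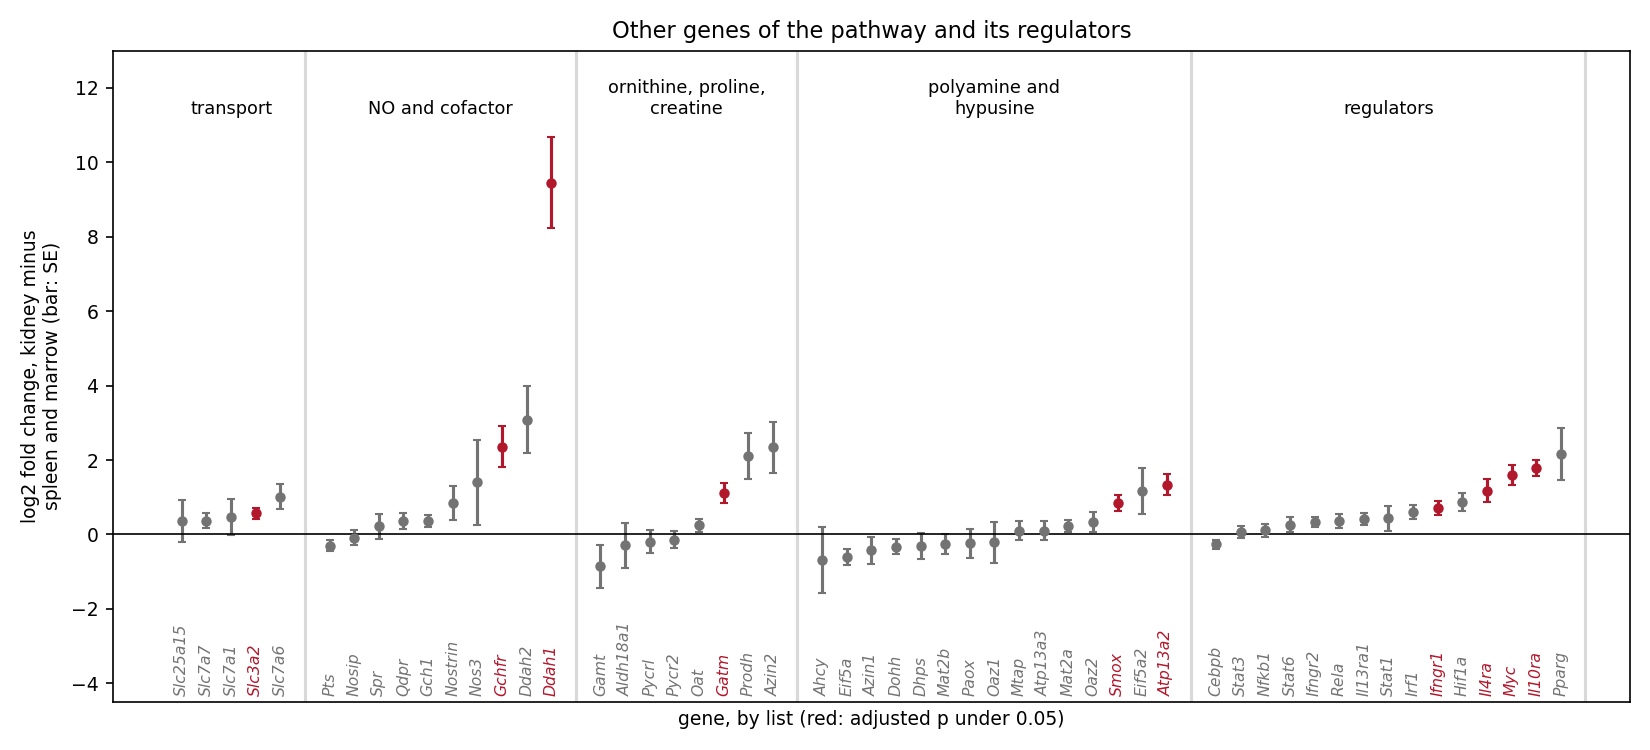
Points give edgeR log2 fold changes, kidney minus spleen and marrow, with SE, for the 53 tested genes of the wider pathway and its regulators, grouped by list. The 10 genes past the threshold are in red and all lie above 0, with Ddah1 the farthest, at a fitted size that depends on the prior count.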

How the data were processed

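One deposited table holds raw counts, whole numbers by gene symbol; the authors supplied a second in FPKM, which divides by sequencing depth and by length. The submitters' processing notes name build mm9 and the tools Cufflinks 2.2.1, STAR 2.5 and bcl2fastq 2.18 without their roles; which program counted reads, and on which annotation, is not given in the sources used here. Per the labels' protocols, SMART-Seq v4 cDNA from 2 ng of RNA went into ThruPLEX libraries, which do not mark strand. The 92 spike-in rows held 0 counts and were left out.

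The main test was edgeR 4.0.16 under R 4.3.3 (filterByExpr, TMM, glmQLFTest, two-sided, Benjamini-Hochberg over 10626 genes, threshold 0.05), after a check on simulated data. SE is the log2 fold change over the square root of F, and its 95% interval uses edgeR's degrees of freedom. CPM use TMM-adjusted sizes. Ratios and shares from few counts have exact binomial intervals, and bounds use 3 counts over a group; reads carry no molecular identifiers, so both cover counting error only. FPKM compared levels between genes. The FPKM and the counts disagree for some genes, so ranks, orders and shares in FPKM are approximate. Lyz2, for example, is listed at 0 FPKM in spleen and marrow replicate 26, where it has 502608 counts. Shared 50-base words were counted in GENCODE M21 transcripts. Alternatives used DESeq2 1.42.0 and limma 3.58.1. Genes named from the wider lists were those called, up to 4 per direction by smallest p, or otherwise the 2 most abundant; further genes without a call (Slc7a1, Ddah2, Nos3, Oat, Eif5a, Amd1, Amd2, Oaz1, Stat6, Cebpb) were chosen after their values were seen. Members and lists were chosen with earlier results of these data known. Of the 5 genes nearest to Arg1, 1 is not reported here. Adgre1 and Azin2 were found under older symbols (Emr1, Adc).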

Additional observations from a re-analysis of the deposited data

How the results depend on the processing

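No paired analysis was possible because the groups share no replicate number. The number of the 10 genes that rose, 2 in the edgeR fit, was 1 to 3 with a library left out. It was 1 with spleen and marrow replicates 24 and 26 summed. In DESeq2, without a filter and with a filter of 1 CPM in 3 libraries it was 3, where Nos2 entered through its kidney counts alone. None fell in any of the 17 alternatives. Arg1 passed in all 17, and Arg2 missed in 4: the summed libraries (adjusted p = 0.0881) and each fit without 1 spleen and marrow library. The 10 wider genes that rose became 2 with summed libraries, 4, 3 and 2 on log2(FPKM + 0.1), log2(FPKM + 1) and log2(FPKM + 1) with no filter, and 2 to 17 with a library left out. Lower calls among them, 0 in edgeR, were 2 in DESeq2, 1 in limma-voom, 1 in each FPKM fit and 0 to 2 with a library left out. Over all genes, 832 rose and 627 fell in edgeR. DESeq2 gave 1433 and 1022, and summed libraries 299 and 201. The balance turned toward lower calls in limma-voom (737 rose, 838 fell) and in the FPKM fits, in the order above (458 rose and 548 fell, 398 and 586, 333 and 486). With a library left out, 260 to 1569 rose and 179 to 1215 fell. The fits that leave out or sum libraries have fewer samples, and their numbers of calls went both ways. Without kidney replicate 22, 1569 rose and 1215 fell. Without spleen and marrow replicate 26, 260 rose and 179 fell. The cause of these shifts was not tested. Depth limits Slc7a2 and Nos2 most, with 15 counts in kidney and 2 in spleen and marrow for Slc7a2, and 62 and 0 for Nos2.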
